A study of Mus musculus with 6 samples.

Results

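The cytochrome P450 genes of families 1 to 4 were examined in intestinal RNA of mouse pups put through an experimental model of necrotizing enterocolitis (NEC). They were taken as the protein-coding genes whose symbol is Cyp, a family digit from 1 to 4, a single letter and a number. This rule gave 75 genes in 21 subfamilies, out of 54446 genes in the count table. It left out 6 genes of these families whose symbol has a further letter, namely Cyp2ab1, Cyp3a41a, Cyp3a41b, Cyp4a12a, Cyp4a12b and Cyp4a30b. Of the 75 genes, 63 had a count in at least 1 library and 12 had none in any library. 33 reached 10 counts in at least 3 libraries, and 32 of these entered the test. Cyp4x1 reached 10 counts in 3 libraries but was removed by the low-count filter.

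Cytochromes P450 are haem enzymes that insert an oxygen atom into their substrates, and those of families 1 to 4 sit mostly in the membrane of the endoplasmic reticulum, where P450 oxidoreductase feeds them electrons. Families 1 to 3 are best known for the oxidation of drugs, plant compounds and pollutants, and family 4 for the hydroxylation of fatty acids and eicosanoids at the far end of the chain. Enterocytes carry such enzymes, above all of the CYP3A type, so that swallowed compounds are oxidised before they reach the liver. Nuclear receptors that bind foreign compounds, bile acids or fatty acids, and the aryl hydrocarbon receptor (AHR), control the transcription of many of these genes.

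The series holds 6 libraries of total RNA from wild-type mouse intestine, 3 labelled NEC and 3 labelled control, all collected at 96 h. Pups of the NEC group were gavaged at intervals of 4 h with 40 µl of Esbilac formula at 33%, and at intervals of 12 h they were placed in 99.9% nitrogen for 100 s and then kept at 4 °C for 10 min. Pups of the control group were fed by the dam and had neither hypoxia nor cold. The sources used here do not give the strain, the segment of intestine or how old the pups were at the start, nor their sex, and the comparison joins formula, hypoxia and cold, which cannot be told apart. Nothing in the labels says that the samples are separate animals, so p-values measure only the spread between these samples, which may be technical.

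Total counts ran from 69441184 to 106304239 per library. All 10 intestinal epithelial markers, such as Vil1 and Cdx2, were measured, and their summed level was 11365 to 16893 CPM in NEC and 12051 to 15660 CPM in control (CPM is the count of a gene relative to the TMM-scaled library total). A pair of libraries stood apart from the other 4 in the P450 genes. These were NEC replicate 1 and control replicate 3, which share a sample code starting with AG181028, while the codes of the other 4 start with AG181017. In these libraries liver-type P450 genes were present at low counts, as described further on, and Alb, the serum albumin gene made by hepatocytes, stood at 21.8 and 25.9 CPM, against 0.172 to 0.201 CPM in the other 4. Since the AG181028 pair is 1 NEC and 1 control library, values within the 4 AG181017 libraries and between the AG181028 pair are given beside the main ones for the named genes. The pair has 1 library a group and gives no test. The labels do not say what the code stands for.

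The promoters of 5 genes are shown because the results turn on them. Cyp3a13 had the highest level of the set and lay higher in 2 of 3 NEC libraries than in any control library, while its relative Cyp3a25 lay lower in all 3 NEC libraries. Cyp2f2, Cyp2c70 and Cyp4f16 had 3 of the 4 smallest p-values in the comparison, with Cyp3a25 the other one. Each window is taken from RefSeq on GRCm38.p6 and runs 5′ to 3′ on the strand of the gene, from 250 bases before the start of transcription to 50 bases after it. The windows are chr5:137921570-137921869 (minus strand) for Cyp3a13, chr5:146009568-146009867 (minus) for Cyp3a25, chr7:27119705-27120004 (plus) for Cyp2f2, chr19:40187237-40187536 (minus) for Cyp2c70 and chr17:32536307-32536606 (plus) for Cyp4f16. Capitals mark the motifs searched on both strands, which were GCGTG, the core of the AHR element, and AGGTCA and AGTTCA, half-sites of nuclear receptors.
Cyp3a13: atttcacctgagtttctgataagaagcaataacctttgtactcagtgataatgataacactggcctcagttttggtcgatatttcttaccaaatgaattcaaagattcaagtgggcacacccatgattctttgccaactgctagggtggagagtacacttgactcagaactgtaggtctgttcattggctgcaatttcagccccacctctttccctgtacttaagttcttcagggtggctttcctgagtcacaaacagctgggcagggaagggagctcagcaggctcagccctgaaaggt
Cyp3a25: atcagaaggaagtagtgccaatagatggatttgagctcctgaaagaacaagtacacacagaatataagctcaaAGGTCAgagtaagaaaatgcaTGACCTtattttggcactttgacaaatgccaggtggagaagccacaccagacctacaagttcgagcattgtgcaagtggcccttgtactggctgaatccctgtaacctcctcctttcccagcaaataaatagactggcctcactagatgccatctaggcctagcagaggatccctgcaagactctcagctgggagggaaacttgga
Cyp2f2: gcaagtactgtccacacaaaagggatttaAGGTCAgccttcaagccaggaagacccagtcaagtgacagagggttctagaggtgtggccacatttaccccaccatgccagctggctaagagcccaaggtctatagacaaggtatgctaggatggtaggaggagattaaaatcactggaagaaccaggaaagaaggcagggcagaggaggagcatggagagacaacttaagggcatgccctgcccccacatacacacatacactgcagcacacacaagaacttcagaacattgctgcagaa
Cyp2c70: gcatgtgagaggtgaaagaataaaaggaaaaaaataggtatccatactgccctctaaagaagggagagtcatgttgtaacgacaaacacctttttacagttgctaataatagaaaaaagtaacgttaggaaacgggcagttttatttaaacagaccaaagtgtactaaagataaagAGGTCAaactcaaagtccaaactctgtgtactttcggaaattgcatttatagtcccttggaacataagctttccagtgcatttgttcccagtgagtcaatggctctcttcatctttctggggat
Cyp4f16: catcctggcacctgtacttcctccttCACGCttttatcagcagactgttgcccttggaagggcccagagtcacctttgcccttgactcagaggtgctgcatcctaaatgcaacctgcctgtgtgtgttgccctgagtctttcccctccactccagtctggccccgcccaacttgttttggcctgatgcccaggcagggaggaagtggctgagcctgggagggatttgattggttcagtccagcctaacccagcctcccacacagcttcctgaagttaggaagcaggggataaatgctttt
The Cyp3a25 window held AGGTCA on each strand, and the windows of Cyp2f2 and Cyp2c70 held it once. The Cyp4f16 window held GCGTG on the minus strand, and none of these letters occurred in the Cyp3a13 window. In all, 62 of the 75 genes had a window in the table, with 69 windows between them. AGGTCA was present in 20 of the 69 windows (29.0%), against 16.3% of all 32851 promoter windows of the same length. GCGTG was present in 14 (20.3%, against 32.4% of all windows) and AGTTCA in 9 (13.0%, against 14.0%). A match describes the letters only, and the 3 motifs do not overlap each other in these windows.

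Levels were compared between genes as CPM per kb of exon. A few genes made up most of the P450 RNA of these intestines. Cyp3a13, the CYP3A gene known in mouse for its expression in intestine, had the highest mean level, with 161 ± 65.8 CPM per kb in NEC and 110 ± 15.6 CPM per kb in control (SD, n = 3 each). Cyp2c68, a gene of the mouse Cyp2c cluster, followed with 70.6 ± 25.4 in NEC and 116 ± 49.9 in control. Cyp3a13 lay above Cyp2c68 in 3 of 6 libraries, so their order was not fixed. Cyp2j6, of a subfamily known for the epoxidation of arachidonic acid, came next with 31.4 ± 8.99 CPM per kb in NEC and 36.2 ± 6.05 in control. Cyp2c68 exceeded Cyp2j6 in 6 of 6 libraries, and Cyp2j6 exceeded the next gene, Cyp4f16, in 6 of 6. Cyp4f16 had 10.5 ± 1.20 CPM per kb in NEC and 25.0 ± 7.02 in control, and Cyp4f13 had 11.8 ± 2.70 and 16.5 ± 4.52. Below these the order changed from library to library. Cyp3a13, Cyp2c68 and Cyp2j6 together held 77.6%, 79.0% and 80.8% of the summed P450 level in NEC replicates 1 to 3 and 69.3%, 79.9% and 54.5% in control replicates 1 to 3. In control replicate 3 the place of Cyp2j6 was taken by Cyp2d26.

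**Figure D1:**
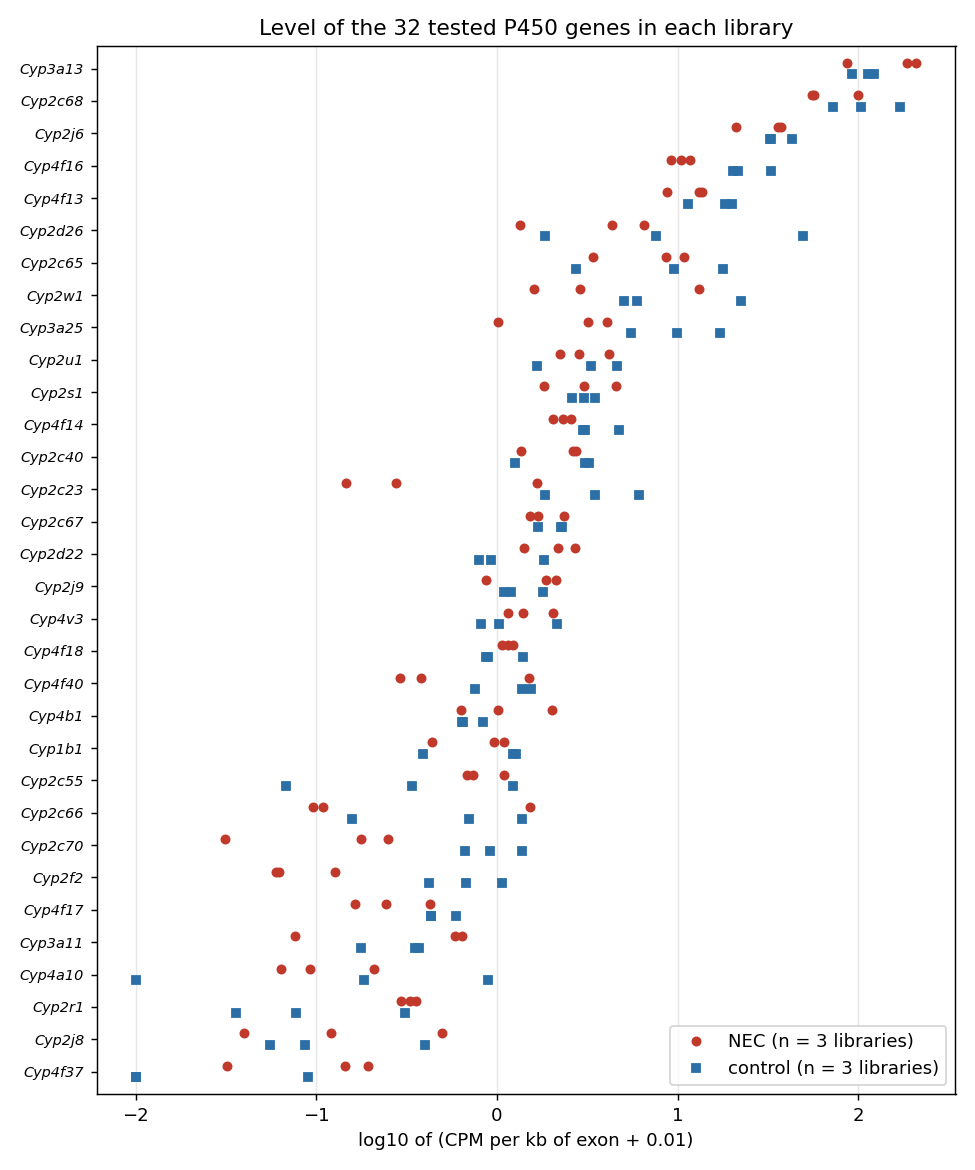
Level of each of the 32 tested P450 genes in each library, ordered by mean level, as log10 of CPM per kb of exon plus 0.01. Red circles are the 3 NEC libraries and blue squares the 3 control libraries. Cyp3a13 and Cyp2c68 lie at the top in every library, and the control squares lie to the right of the NEC circles for Cyp4f16, Cyp3a25, Cyp4f14, Cyp2c23, Cyp2c70, Cyp2f2 and, by a narrow gap, Cyp4f17.

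None of the 32 tested P450 genes passed the edgeR quasi-likelihood test at an adjusted p below 0.05, and the smallest adjusted p was 0.072. Over all 19176 genes tested, 135 passed, or 0.704%. At an unadjusted p below 0.05, 5 of the 32 genes were lower in NEC (15.6%) and 0 were higher, against 7.99% of all genes lower and 7.61% higher. These 5 were Cyp2f2, Cyp2c70, Cyp2c23, Cyp3a25 and Cyp4f16. DESeq2, run as an alternative, called the same 5 genes lower at its own adjusted p below 0.05 and 0 higher. DESeq2 called 3.93% of all genes lower and 3.65% higher. Limma-voom called 0 of the 32. With 3 libraries against 3 the median SE of a P450 log2 fold change was 0.522, so a 0 from edgeR does not show an absence of change.

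The direction of the differences was uneven. Of the 32 genes 20 had a negative log2 fold change and 12 a positive one, with a median of -0.21, against 0.026 over all genes tested. In 7 genes all NEC libraries were lower than all control libraries (21.9%, against 11.6% of all genes tested), and in 0 genes all NEC libraries were higher (against 10.8%). The 7 were Cyp2c23, Cyp2c70, Cyp2f2, Cyp3a25, Cyp4f14, Cyp4f16 and Cyp4f17. The genes were chosen with earlier results of these data known, and several have close paralogs, so these shares are descriptions and were not tested. The median moved to -0.047 when no low-count filter was used and to -0.316 when at least 50 counts in 3 libraries were required. Leaving out NEC replicate 3 gave -0.054, control replicate 2 gave -0.101, and leaving out NEC replicate 1 gave -0.105. In bulk tissue, fewer cells of a type and less RNA per cell cannot be told apart, and this holds for every level that follows.

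**Figure D2:**
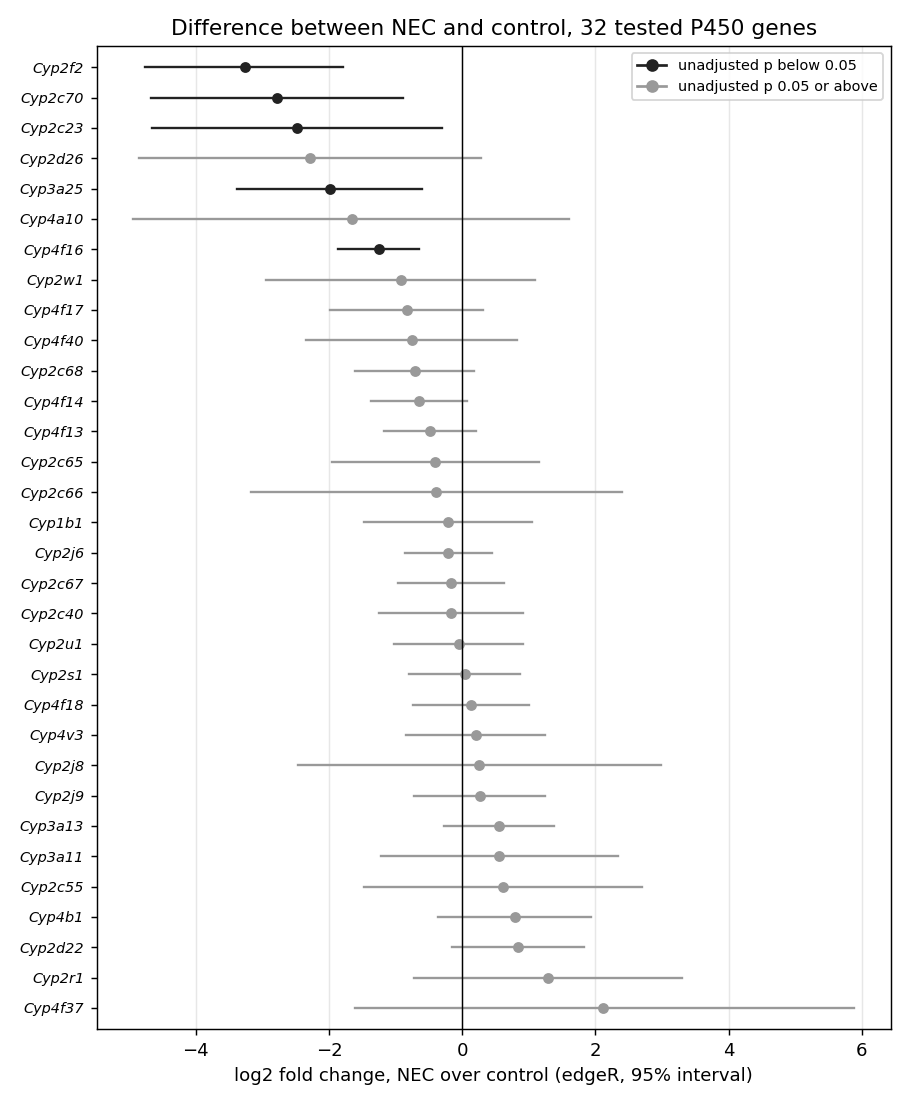
Log2 fold change of NEC over control for the 32 tested P450 genes (edgeR), with 95% intervals as bars. Black marks the 5 genes with an unadjusted p below 0.05 and grey the rest. The black intervals all lie left of 0, from Cyp2f2 at -3.27 to Cyp4f16 at -1.26, and no gene to the right of 0 is black.

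In the Cyp3a subfamily, whose enzymes oxidise many drugs and steroids, the 2 most abundant genes lay in opposite directions. Cyp3a13 (ENSMUSG00000029727, chr5:137892932-137921619, minus strand) had 552, 256 and 623 CPM in NEC replicates 1 to 3 and 274, 338 and 363 CPM in control replicates 1 to 3. NEC replicates 1 and 3 lay above all controls and NEC replicate 2 below all of them. The log2 fold change was 0.56 (SE 0.35, 95% interval -0.27 to 1.38) with an edgeR adjusted p of 0.509. It was 0.49 within the AG181017 libraries and 0.61 between the AG181028 pair. Cyp3a25 (ENSMUSG00000029630, chr5:145977194-146009618, minus strand), a CYP3A gene known from mouse liver, had 6.63, 2.09 and 8.45 CPM in NEC and 20.6, 11.4 and 36.0 CPM in control. The 3 NEC values were all under the lowest control value. Its log2 fold change was -1.99 (SE 0.60, 95% interval -3.38 to -0.60), or 3.97-fold lower, with an edgeR adjusted p of 0.177 and a DESeq2 adjusted p of 0.0158. Within the AG181017 libraries the log2 fold change of Cyp3a25 was -1.64, and between the AG181028 pair the difference was -2.44. Transcripts of Cyp3a25 and Cyp3a59 are 97.0% identical where they align and may share counts, while Cyp3a13 is 77.2% identical to Cyp3a25. The other tested gene, Cyp3a11, the main CYP3A of mouse liver and a target of the pregnane X receptor, overlapped between the groups at 2.16 ± 1.58 CPM in NEC and 1.47 ± 0.540 CPM in control.

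The ratio of these 2 genes separated the groups, while the summed Cyp3a level did not. Per kb of exon, Cyp3a25 stood at 1.70%, 1.16% and 1.93% of the Cyp3a13 level in NEC and at 10.7%, 4.81% and 14.1% in control. The groups did not overlap in this ratio, which was chosen after the values were seen and has no test. A ratio within a library does not depend on how library sizes were scaled. The summed Cyp3a level was 191, 87.8 and 215 CPM per kb in NEC and 103, 120 and 141 in control, and it overlapped. Cyp3a13 alone held 54.9%, 30.6% and 56.4% of the summed level of all 75 genes in NEC and 28.1%, 27.9% and 29.3% in control. Its share was higher in every NEC library, in NEC replicate 2 by a narrow gap. In NEC replicate 2 the Cyp3a13 level and the summed level of all 75 genes were both the lowest of the 6 libraries. They stood at 86.7 and 283 CPM per kb.

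**Figure D3:**
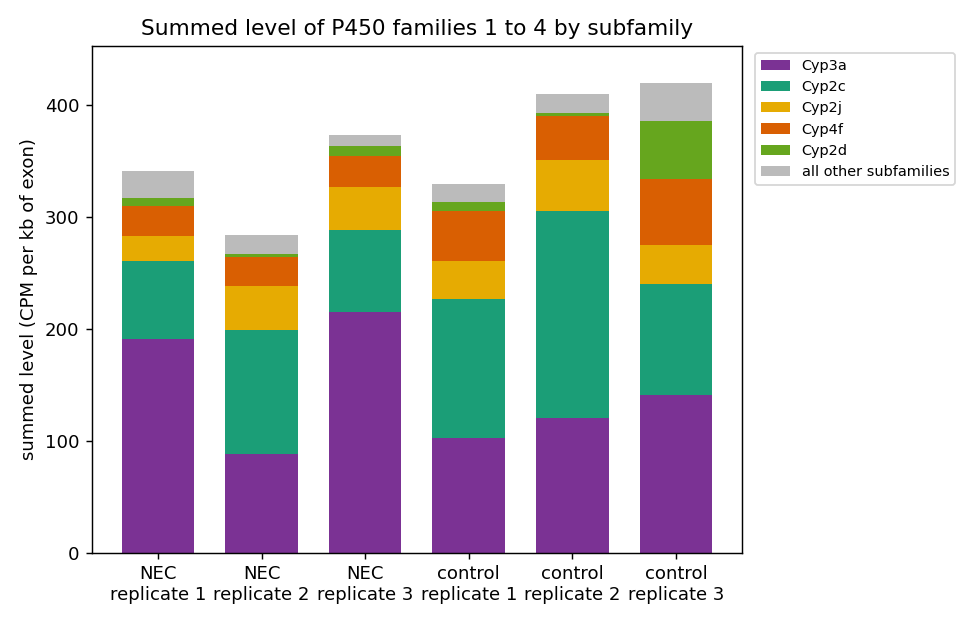
Summed level of the 75 P450 genes in each library in CPM per kb of exon, split by subfamily, with the 3 NEC libraries on the left and the 3 control libraries on the right. Cyp3a is the widest part in NEC replicates 1 and 3 and in control replicate 3, Cyp4f is narrower in all 3 NEC libraries, and the Cyp2d part is wide in control replicate 3 alone.

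The largest difference in the set was that of Cyp2f2, which in mouse lung makes toxic products of naphthalene in club cells. Cyp2f2 (ENSMUSG00000052974, chr7:27119909-27133660, plus strand) had 0.105, 0.237 and 0.101 CPM in NEC and 2.15, 1.34 and 0.827 CPM in control. These were 10, 21 and 7 counts in NEC and 158, 93 and 87 counts in control. The highest NEC value was well under the lowest control value. The log2 fold change was -3.27 (SE 0.64, 95% interval -4.77 to -1.79), or 9.63-fold lower, with an edgeR adjusted p of 0.072 and a DESeq2 adjusted p of 5.6e-05. It was -3.36 within the AG181017 libraries and -2.98 between the AG181028 pair. Gm15883 overlaps Cyp2f2 on the opposite strand, and the sources used here do not name the strand setting of the counting, so their counts cannot be told apart.

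Genes of the Cyp2c subfamily act on drugs, arachidonic acid and, in mouse, bile acids. Cyp2c70 (ENSMUSG00000060613, chr19:40153353-40187333, minus strand), the mouse enzyme that makes muricholic acids, had 0.0419, 0.474 and 0.330 CPM in NEC and 1.80, 1.29 and 2.72 CPM in control. All NEC libraries lay below all control libraries, with 4, 42 and 23 counts in NEC and 132, 90 and 286 counts in control. The log2 fold change was -2.78 (SE 0.82, 95% interval -4.68 to -0.89), or 6.87-fold lower, with an edgeR adjusted p of 0.165 and a DESeq2 adjusted p of 0.00834. It was -1.96 within the AG181017 libraries and -6.02 between the AG181028 pair, where NEC replicate 1 holds 4 counts.

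Cyp2c23 (ENSMUSG00000025197, chr19:44005022-44029208, minus strand), an arachidonic acid epoxygenase known from mouse kidney, had 0.294, 3.55 and 0.575 CPM in NEC and 7.49, 13.2 and 3.94 CPM in control. NEC replicate 2 came close to control replicate 3, and the groups did not overlap. The log2 fold change was -2.48 (SE 0.94, 95% interval -4.65 to -0.31), or 5.57-fold lower, with an edgeR adjusted p of 0.264 and a DESeq2 adjusted p of 0.0428. It was -2.34 within the AG181017 libraries and -3.75 between the AG181028 pair, and it was -4.26 without NEC replicate 2.

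The abundant Cyp2c68 (ENSMUSG00000074882, chr19:39688834-39741054, minus strand) had 97.7, 172 and 95.2 CPM in NEC and 179, 293 and 125 CPM in control, and the groups overlapped. Its log2 fold change was -0.71 (SE 0.38) with an edgeR adjusted p of 0.428, and leaving out single libraries gave -1.05 to -0.32. It was -0.84 within the AG181017 libraries and -0.36 between the AG181028 pair. Cyp2c68 made up 75.7% to 90.0% of the summed Cyp2c level in NEC and 73.0% to 91.8% in control. Against it, Cyp2c23 stood at 0.240%, 1.65% and 0.482% of its level in NEC and at 3.35%, 3.61% and 2.52% in control, and these ratios did not overlap. In the opposite direction, Cyp2c67 stood at 2.95%, 2.34% and 2.75% of the Cyp2c68 level in NEC and at 2.19%, 1.34% and 2.31% in control. These did not overlap either, by a narrow gap. The level of Cyp2c67 itself was not higher in NEC, with a log2 fold change of -0.169 (SE 0.345). All 4 ratios computed between genes of a subfamily were chosen after the values were seen. Cyp2c40 is 98.0% identical to Cyp2c68 over the aligned part of the transcripts and may share its counts. Cyp2c67 is 97.6% identical to Cyp2c40, so its counts may be shared too. The other tested Cyp2c genes, Cyp2c40, Cyp2c55, Cyp2c65, Cyp2c66 and Cyp2c67, overlapped between the groups, with log2 fold changes from -0.40 for Cyp2c65 to 0.62 for Cyp2c55. Cyp2c65 averaged 14.7 ± 7.41 CPM in NEC and 19.4 ± 14.6 CPM in control.

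**Figure D4:**
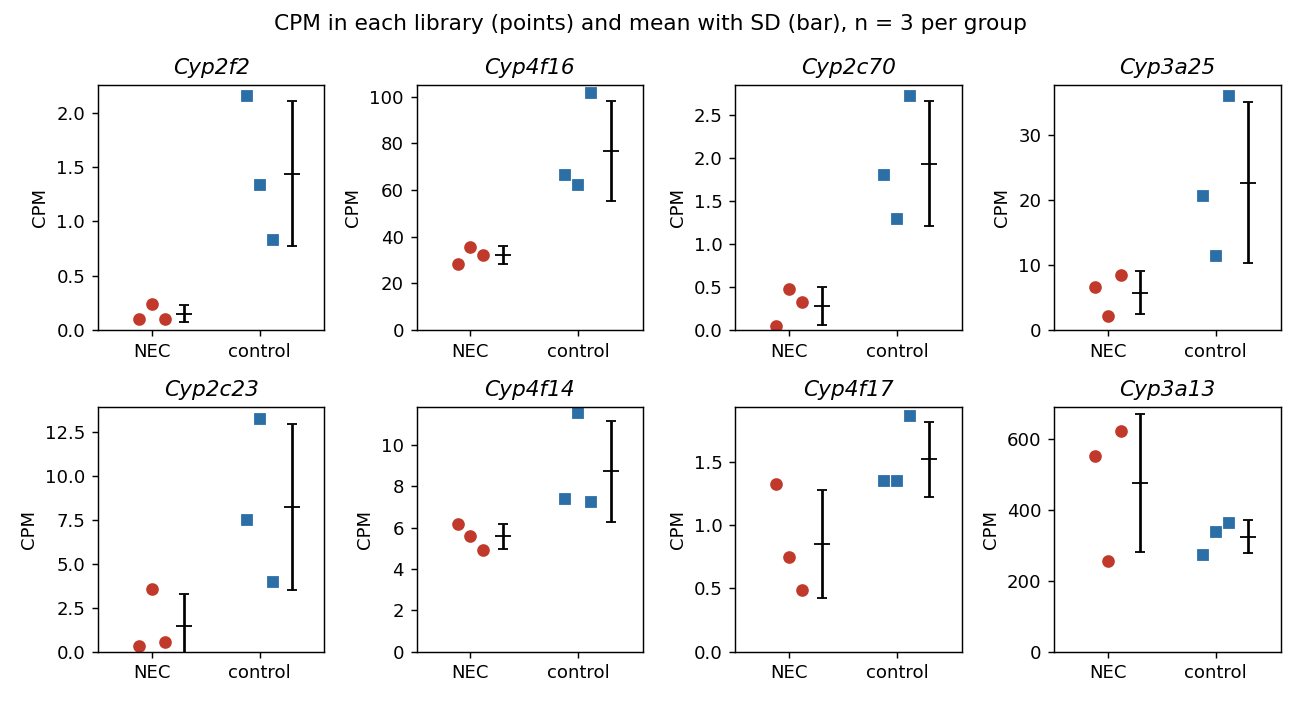
CPM of 8 P450 genes in each library, with the 3 NEC libraries on the left of each panel and the 3 control libraries on the right. Bars give the mean and SD of a group and are cut at 0, and each axis starts at 0. In all panels but that of Cyp3a13 the NEC points lie below the control points, by 1.32 against 1.35 CPM at the closest in Cyp4f17.

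The Cyp4f enzymes end the action of leukotriene B4 and other eicosanoids by hydroxylating them, and 7 of 9 genes of the subfamily were tested. Cyp4f16 (ENSMUSG00000048440, chr17:32536558-32551798, plus strand) had 28.4, 35.8 and 32.2 CPM in NEC and 66.4, 62.2 and 101 CPM in control. The NEC libraries lay close together and all below the controls. The log2 fold change was -1.26 (SE 0.26, 95% interval -1.87 to -0.65), or 2.39-fold lower, with an edgeR adjusted p of 0.0838 and a DESeq2 adjusted p of 0.00172. It was -0.95 within the AG181017 libraries and -1.84 between the AG181028 pair, and from -1.39 to -1.01 with 1 library left out. Per kb, Cyp4f16 stood at 68.0%, 133% and 79.6% of the Cyp4f13 level in NEC and at 119%, 178% and 166% in control, and this ratio overlapped. Cyp4f16 is 96.1% identical to Cyp4f37, so their counts may be shared. Cyp4f37 had the highest log2 fold change of the 32 genes, at very low counts of 6, 47 and 27 in NEC and 0, 16 and 0 in control (2.12, SE 1.61, 95% interval -1.602 to 5.89, edgeR adjusted p = 0.587).

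Of the 7 tested Cyp4f genes, 5 had negative values and 2, Cyp4f37 and Cyp4f18, positive ones. Cyp4f14, a leukotriene B4 hydroxylase of mouse, had 6.17, 5.61 and 4.93 CPM in NEC and 7.40, 11.5 and 7.22 CPM in control, without overlap (log2 fold change -0.65, SE 0.31, edgeR adjusted p = 0.371). Its value was -0.87 within the AG181017 libraries and -0.23 between the AG181028 pair. Cyp4f17 had 1.32, 0.745 and 0.489 CPM in NEC and 1.35, 1.35 and 1.86 CPM in control, where the gap between the groups was narrow (-0.83, SE 0.50, edgeR adjusted p = 0.475, and -1.15 within the AG181017 libraries against -0.50 between the pair). Cyp4f13 overlapped, with 60.5, 38.8 and 58.5 CPM in NEC and 80.9, 50.6 and 88.6 CPM in control (-0.48, SE 0.30, edgeR adjusted p = 0.492, and -0.46 within the AG181017 libraries against -0.55 between the pair). Cyp4f18, the leukotriene B4 hydroxylase of mouse neutrophils, overlapped too, with 2.11 ± 0.142 CPM in NEC and 1.93 ± 0.549 CPM in control (0.13, SE 0.38). It overlaps Zfp961 on the opposite strand. Summed per kb of exon, the Cyp4f genes stood at 27.2, 25.8 and 27.6 CPM per kb in NEC and 45.0, 39.2 and 59.6 in control, a mean of 26.8 ± 0.950 against 47.9 ± 10.5, with no overlap. Within these sums Cyp4f16 alone averaged 10.5 CPM per kb in NEC and 25.0 in control. Cyp4f13, whose groups overlapped, averaged 11.8 and 16.5. Cyp4f was the only one of the Cyp2c, Cyp2d, Cyp2j, Cyp3a and Cyp4f subfamilies whose sums did not overlap. An exact permutation test of 3 against 3 libraries cannot go below 0.1 and was not run on these sums.

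The remaining family 4 genes hydroxylate fatty acids. Cyp4a10, a classical target of the fatty acid receptor PPARA, had 40, 10 and 12 counts in NEC and 27, 0 and 196 counts in control. The high control value is that of replicate 3, and the log2 fold change of -1.66 (SE 1.41, edgeR adjusted p = 0.634) became 0.36 without that library. It was -0.40 within the AG181017 libraries and -2.15 between the AG181028 pair. Cyp4b1 had 2.73 ± 1.604 CPM in NEC and 1.58 ± 0.250 CPM in control (0.79, SE 0.50, with 0.82 within the AG181017 libraries and 0.67 between the pair). Cyp4v3, the mouse counterpart of a human gene of corneoretinal dystrophy, had 5.79 ± 1.77 CPM in NEC and 5.04 ± 2.74 CPM in control (0.20, SE 0.45), and its sign turned with 1 library left out (-0.064 to 0.72). It was 0.88 within the AG181017 libraries and -0.92 between the AG181028 pair, so the code groups differed in sign.

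In family 2, Cyp2d26 showed how far 1 library could set a difference. It had 7.72, 2.38 and 11.7 CPM in NEC and 13.6, 3.29 and 88.8 CPM in control, so that 1 control library held most of the signal. The log2 fold change was -2.28 (SE 1.11, edgeR adjusted p = 0.375) with all libraries and -0.23 without control replicate 3. It was -0.30 within the AG181017 libraries and -3.52 between the AG181028 pair. Cyp2w1, known in human for expression in fetal gut and colon tumours, had 20.1, 4.37 and 2.43 CPM in NEC and 9.08, 7.66 and 34.2 CPM in control, with its highest NEC and highest control value in the AG181028 pair. Its log2 fold change of -0.92 (SE 0.87) ran from -2.32 to 0.11 with 1 library left out, and was -1.32 within the AG181017 libraries and -0.77 between the AG181028 pair. Control replicate 3 also had the highest Cyp3a25 value and the highest levels of Gata4 (145 CPM) and Onecut2 (37.5 CPM), markers of the proximal small intestine. Gata4 stood at 63.9, 28.2 and 81.1 CPM in NEC and 104, 41.8 and 145 CPM in control, and Onecut2 at 0.713, 1.298 and 6.95 CPM in NEC and 7.03, 0.747 and 37.5 CPM in control. Slc10a2, the ileal bile acid transporter gene, had the smallest p of the segment markers, with 4.498, 1.82 and 0.474 CPM in NEC and 0, 0.230 and 0 CPM in control, higher in every NEC library (4.93, SE 1.58, edgeR adjusted p = 0.198). Fabp6, a second ileal marker named after its values were seen, overlapped and had a negative value. It had 5.90, 8.43 and 1.42 CPM in NEC and 1.04, 20.9 and 0 CPM in control (-0.47, SE 1.69). Of the 10 segment markers 7 were tested and 0 were called, with 1 positive value, that of Slc10a2, and 6 negative ones. Their summed level, nearly all of it Apoa4, was 28804 to 89799 CPM in NEC and 33780 to 105587 CPM in control. The colon markers Hoxb13 and Hoxd13 were at 0 in every library. The part of segment in these P450 values was not tested.

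Other family 2 genes differed less. Cyp2d22, the mouse CYP2D gene often set beside the human drug-oxidising CYP2D enzyme, had 10.5, 5.51 and 8.48 CPM in NEC and 3.05, 3.61 and 7.09 CPM in control, which overlapped (0.83, SE 0.43, edgeR adjusted p = 0.401, with 1.04 within the AG181017 libraries and 0.57 between the pair). Cyp2r1, a vitamin D hydroxylase, had 0.734, 0.677 and 0.603 CPM in NEC and 0.0545, 0.632 and 0.143 CPM in control (1.29, SE 0.87, edgeR adjusted p = 0.535). This value ran from 0.80 to 2.73 with 1 library left out, with 2.73 in the absence of control replicate 2. It was 0.87 within the AG181017 libraries and 2.36 between the AG181028 pair. Cyp2j6 had 75.7, 134 and 129 CPM in NEC and 117, 156 and 119 CPM in control (-0.21, SE 0.28), with a 95% interval of -0.86 to 0.45. Its value was -0.072 within the AG181017 libraries and -0.65 between the pair. The epithelial Cyp2s1 stood at 15.4 ± 6.71 CPM in NEC and 15.0 ± 2.19 CPM in control, and the fatty acid hydroxylase Cyp2u1 at 16.1 ± 5.21 and 16.7 ± 7.70 CPM. Cyp2s1 overlaps Gm26707 and Gm45226, and Cyp2u1 overlaps 4930534D22Rik, on the opposite strand. The log2 fold changes of 0.04 for Cyp2s1 and -0.05 for Cyp2u1 both turned sign with limma-voom. Within the AG181017 libraries they were 0.039 and -0.19, and between the AG181028 pair -0.0090 and 0.41.

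Of family 1, which answers to AHR, only Cyp1b1 was tested. Cyp1b1, which hydroxylates oestradiol and aromatic hydrocarbons, had 2.48, 6.32 and 5.56 CPM in NEC and 7.07, 7.37 and 2.21 CPM in control, with the lowest value of each group in the AG181028 pair (log2 fold change -0.21, SE 0.55, edgeR adjusted p = 0.905). It was -0.31 within the AG181017 libraries and 0.17 between that pair. Cyp1a1, the classical AHR target, had 17 counts in NEC replicate 1, 5 in control replicate 3 and 0 in the other 4 libraries. Cyp1a2, its liver-expressed neighbour, had 8 and 4 counts in the same libraries and 0 elsewhere.

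Among the genes too low to test, 12 followed the sample code and not the group. In these 12 genes, counts were above 0 in both AG181028 libraries and 0 in all 4 AG181017 libraries. These were Cyp1a1, Cyp1a2, Cyp2a4, Cyp2a5, Cyp2b9, Cyp2c37, Cyp2c38, Cyp2c50, Cyp2e1, Cyp4a14, Cyp4a31 and Cyp4f15, 19.0% of the 63 P450 genes with a count. The same pattern held for 65 of 17764 protein-coding genes with a count, or 0.366%. The pattern was noticed in the values and has no test. The AG181028 libraries were also the deepest, with total counts of 97445491 and 106304239, against 69441184 to 77953991 in the other 4. The part of depth in the pattern was not tested. Cyp2e1, the ethanol-oxidising P450 of liver, had 161 counts in NEC replicate 1 and 127 in control replicate 3. Cyp2a5, which oxidises coumarin, had 54 and 48 counts, its paralog Cyp2a4 48 and 58, and the PPARA target Cyp4a14 32 and 16. Together the 12 genes summed to 367 counts in NEC replicate 1, 301 in control replicate 3 and 0 in each of the other libraries. Cyp2d9, a male-biased P450 of mouse liver, had 86 and 61 counts in this pair and 9 in NEC replicate 2.

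Some hepatocyte markers followed this pattern and others did not. Besides Alb, the secreted liver glycoprotein gene Ahsg stood at 2.84 CPM in NEC replicate 1 and 4.98 CPM in control replicate 3, against 0 to 0.248 CPM in the other 4 libraries. Alb and Ahsg are named here after their values were seen. Hpx and Apoh, named in the same way, were also highest in this pair. Hpx stood at 2.17 and 2.07 CPM there and at most at 0.914 CPM elsewhere, and Apoh at 1.31 and 1.27 CPM against at most 0.575 CPM. The fibrinogen genes Fgb and Fga, also named after seeing them, did not follow the pattern. They were lowest in control replicate 3, at 1.008 and 1.17 CPM, and in NEC replicate 1 stood at 4.91 and 6.72 CPM, within the range of the AG181017 libraries. Serpina1c, a protease inhibitor gene with the smallest p of the list, had 3.81, 3.44 and 4.64 CPM in NEC and 31.6, 5.33 and 59.2 CPM in control, lower in every NEC library (log2 fold change -3.02, SE 0.75, edgeR adjusted p = 0.117). All 10 hepatocyte markers were tested, 0 were called and 0 were at 0 in every library. Their summed level was 728 to 1273 CPM in NEC and 988 to 2055 CPM in control, most of it from Cps1 and Ttr, which intestine also expresses, and it was not highest in the AG181028 pair. The part of hepatocyte RNA in the P450 counts was not tested. The pair holds 1 library of each group, so the 12 P450 genes with this pattern gave no testable difference between NEC and control. The number of P450 genes above 0 was 53, 41 and 38 in NEC and 37, 35 and 55 in control. It was highest in the AG181028 pair, which also had the highest total counts.

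**Figure D5:**
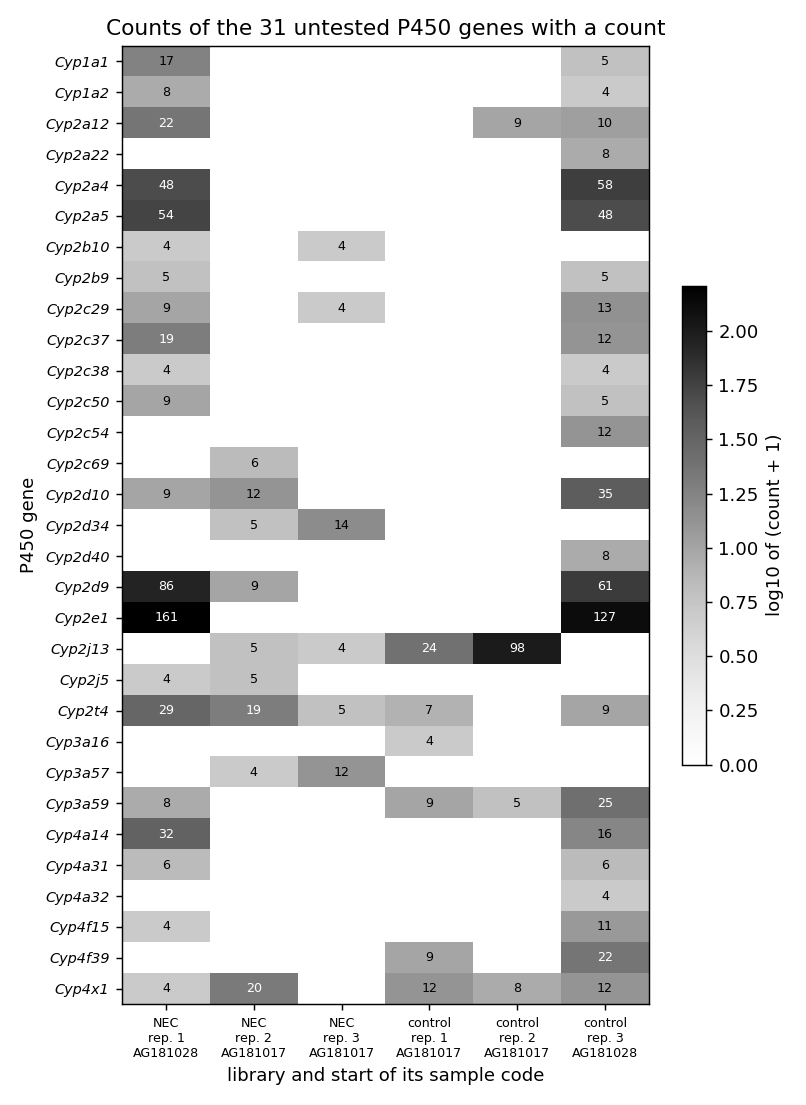
Deposited counts of the 31 P450 genes that had a count but were not tested, with NEC libraries in the left 3 columns and control libraries in the right 3, and the start of each sample code below. Shading is log10 of the count plus 1 and empty cells are 0. The outermost columns, NEC replicate 1 and control replicate 3 with code AG181028, hold most of the counts, such as 161 and 127 for Cyp2e1.

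The genes that control and supply these enzymes were set beside them. The number of edgeR calls over all genes changed with the library left out, so calls among these genes need caution. It was 34 without NEC replicate 1, 101 without NEC replicate 2 and 3 without NEC replicate 3. Without control replicate 1 it was 0, without control replicate 2 it was 106 and without control replicate 3 it was 25. Each of these fits also has 1 library fewer. Of 14 receptors and partners that sense foreign compounds, bile acids or fatty acids, 0 were called higher and 1 lower, with a median log2 fold change of -0.060. The called gene was Nr0b2, a repressor switched on by the bile acid receptor, at 0.192 ± 0.109 CPM in NEC and 19.2 ± 6.16 CPM in control (log2 fold change -6.66, SE 0.55, edgeR adjusted p = 0.015). Hnf4a, a master regulator of liver and gut epithelium, did not pass but was lower in every NEC library, with 415 ± 79.7 CPM in NEC and 616 ± 35.2 CPM in control (-0.57, SE 0.24, edgeR adjusted p = 0.31). The bile acid receptor gene Nr1h4 overlapped, with 346 ± 87.4 CPM in NEC and 208 ± 64.8 CPM in control (0.73, SE 0.33).

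Of 6 other AHR target genes 5 were tested, 1 was called higher and 0 lower, with a median of 0.75. Gsta1, a glutathione transferase gene, rose to 138 ± 87.1 CPM in NEC, against 7.45 ± 5.59 CPM in control (log2 fold change 4.21, SE 0.69, edgeR adjusted p = 0.048). Nqo1, a quinone reductase gene, had 37.1 ± 16.8 CPM in NEC and 12.7 ± 1.498 CPM in control (1.55, SE 0.36, edgeR adjusted p = 0.102), and Tiparp, a feedback inhibitor of AHR, had 0.54 (SE 0.24). None of 13 PPARA target genes was called by edgeR, with 4 positive and 9 negative values and a median of -0.27. The lipid droplet gene Plin2 had 440 ± 138 CPM in NEC and 873 ± 275 CPM in control (-0.99, SE 0.35, edgeR adjusted p = 0.241). The fatty acid binding protein gene Fabp1 overlapped, with 782 ± 727 CPM in NEC and 2752 ± 1420 CPM in control (-1.81, SE 0.71, edgeR adjusted p = 0.278). None of the 15 genes of electron supply and haem synthesis was called, with a median of 0.28. Of the 15, 10 had positive values and 5 negative ones, and the 3 with the smallest p were negative. The haem synthesis genes Uros and Ppox were lower in every NEC library, with log2 fold changes of -1.65 (SE 0.45) and -0.68 (SE 0.26), and the haem-binding membrane protein gene Pgrmc2 overlapped at -1.31 (SE 0.44). Of the positive ones, named after their values were seen, the electron carrier gene Cyb5b was higher in every NEC library (0.28, SE 0.21), and Por, the P450 oxidoreductase gene, overlapped with 312, 50.6 and 247 CPM in NEC and 64.1, 32.3 and 127 CPM in control (1.45, SE 0.70, edgeR adjusted p = 0.377). The 25 P450 genes outside the rule had a positive median of 0.71 over the 10 tested, with 0 called. Among them were Cyp11a1 of steroid synthesis (2.37, SE 0.93), Cyp51 of cholesterol synthesis (1.04, SE 0.41) and the oxysterol hydroxylase gene Cyp7b1 (1.15, SE 0.50).

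Markers of other cell types were counted in the same fit. Of 10 neutrophil markers 8 were tested and 0 were called, with a median of 2.60, and 5 of the 8 were higher in every NEC library than in any control library, as 10.8% of all genes tested were. Mmp9 (-0.86, SE 0.38), Csf3r (-0.90, SE 0.80) and Camp (-0.06, SE 0.90), the other 3 and named after their values were seen, overlapped and had negative values. Their summed level was 35.8 to 63.0 CPM in NEC and 19.4 to 27.4 CPM in control, and Ly6g was at 0 in every library. Of 10 macrophage and monocyte markers 1 was called higher, Cd163, and 0 lower, with a median of 0.62. Of the 10, 8 had positive values and 2 negative ones. Csf1r, 1 of the negative ones, was lower in every NEC library, with 129.8 ± 22.4 CPM in NEC and 278.5 ± 37.8 CPM in control (-1.10, SE 0.24, edgeR adjusted p = 0.0919). The summed level of the 10 was 229 to 364 CPM in NEC and 336 to 425 CPM in control. Of 10 stromal and vascular markers 0 were called, with a median of 0.092. Of 10 epithelial markers 0 were called, with a median of -0.17. Of 10 pancreatic markers 4 were tested and Cela1 was called lower (log2 fold change -3.06, SE 0.37, edgeR adjusted p = 0.0297), with a summed level of 19.9 to 94.1 CPM in NEC and 46.1 to 187 CPM in control. The 4 tested ones had 1 positive value and 3 negative ones. The part of these cell types in the P450 values was not tested.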

How the data were processed

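Whole-number counts per gene were deposited by the authors for all 6 samples in 1 table. Reads were 150 bp pairs from an Illumina NovaSeq, per the labels' protocols, with mm10 as the genome build per the submitters' processing notes. Which aligner, counter, annotation and strand setting were used is not given in the sources used here. Between 8 and 37, a count divisible by 4 occurred 2.03 times as often as its neighbours, so the counts may overstate the number of sequenced fragments.

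From these counts, gene symbols and positions were taken from GENCODE M21 on mm10, in which 54409 of 54446 identifiers matched and 37 did not. All 75 P450 genes of the annotation were in the table, and 0 per-sample columns were left unused. The test was run with edgeR 4.0.16 (R 4.3.3) over the 19176 genes kept by filterByExpr (minimum count 10), with TMM scaling, robust dispersions, the quasi-likelihood F test of NEC against control over all 6 samples and Benjamini-Hochberg adjustment over all genes, and genes with adjusted p under 0.05 were called. Log2 fold changes are NEC over control. Levels per kb divide TMM-scaled CPM by the exon length of a gene. The procedure was tested on simulated data. Transcripts were compared with blastn 2.17.0 over alignments of at least 50% of the query. Every pair of libraries differed by more than sampling noise.

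The genes, the marker and pathway lists and the tests were chosen with earlier results of these data known. Named were called genes, the 12 tested genes with the smallest p, the gene of each subfamily with the highest level per kb, genes whose groups did not overlap at a mean of at least 5 CPM, and up to 3 genes per list with the smallest p. Genes outside this rule are given in ranges, as part of a subfamily, or as chosen after their values were seen. Same-numbered NEC and control samples were not paired in the main fit, and whether the numbers pair them could not be settled. The alternatives were RLE and library-size scaling, no filter and filters of 10 or 50 counts in 3 libraries, DESeq2 1.42.0, limma-voom (limma 3.58.1), robust=FALSE, a replicate block, the start of the sample code as a term, the 4 AG181017 libraries alone and each library left out. With 1 library left out, or the 4 alone, the spread is estimated from the remaining libraries. Promoters came from RefSeq. A gene that the naming rule selects is not reported here.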

Additional observations from a re-analysis of the deposited data

How the results depend on the processing

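edgeR called 0 of the P450 genes in every alternative fitted with it and with each library left out (0 to 0 genes called, higher or lower), and limma-voom called 0, while DESeq2 called 5, all 5 lower. Over all genes the count of 135 became 247 with no filter, 1452 with DESeq2, 243 with the sample code as a term, 25 in the AG181017 libraries alone and 0 to 106 with 1 library left out. With the replicate number as a block it was 54 over all genes and 0 among the P450 genes. Deviations from the group means of same-numbered NEC and control samples had correlations of -0.141, 0.269 and -0.007. Those of differently numbered samples ran from -0.342 to 0.358. With 3 samples a group these correlations cannot settle whether the numbers pair the samples. The correlation of NEC replicate 1 with control replicate 3, which share a code, was 0.358. The median of -0.209 over the tested P450 genes became -0.047 with no filter and -0.316 with at least 50 counts in 3 libraries, where fewer genes were tested, and -0.309 to -0.054 with 1 library left out. The log2 ratio of summed levels was -0.836 for Cyp4f (-0.773 with library-size scaling, -0.962 to -0.649 with 1 library left out) and -1.73 for Cyp2d (-2.25 to 0.189 with 1 library left out, with 0.189 without control replicate 3).

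Of 375 values of the 21 named genes under 18 alternatives, 352 kept their sign and their side of the threshold, 5 passed with DESeq2 and 18 turned sign, and 14 of the 21 genes never turned. Cyp2u1, at -0.05, turned to 0.050 with library-size scaling, 0.052 with limma-voom, 0.016 with the replicate block and 0.023 with the sample code as a term, and ran from -0.372 to 0.309 with 1 library left out. Cyp2s1, at 0.04, turned to -0.033 with limma-voom and -0.048 with the replicate block, and ran from -0.331 to 0.313. With 1 library left out Cyp1b1 ran from -0.609 to 0.096, Cyp4v3 from -0.064 to 0.723, Cyp2w1 from -2.32 to 0.113, Cyp4a10 from -2.39 to 0.358 and Cyp2j6 from -0.363 to 0.012. The cause of these turns was not tested. Counts divided by 4 and rounded, an alternative chosen after seeing the data, called 0 P450 genes. Genes with few counts, such as Cyp2f2 and Cyp2c70 in NEC, are limited by depth.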
